A study of Homo sapiens with 31 samples.

Results

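Zinc finger genes named ZNF with a number form large groups of neighbouring genes on human chromosome 19, and 261 of the 56269 gene names counted here are such genes, taken as every name made of ZNF, digits and at most 1 further letter whose exons lie on chromosome 19 alone. Of these 261, 203 had enough reads to be tested among 15787 tested genes, 47 had too few, and 11 had 0 counts in every library. Messenger RNA came from MCF10A, a non-transformed human breast epithelial cell line, in 31 libraries of 11 groups. Cells kept for 2 to 3 days without serum, EGF and insulin were released into full medium with 1 µM palbociclib, which blocks CDK4 and CDK6, the kinases paired with D-type cyclins, and collected at 9, 12, 15 and 24 h. Other cells were released into the same medium with 0.1% DMSO, the vehicle, and collected at 3, 6, 9, 12, 15 and 24 h, and starved cells were collected at 0 h without release. Groups had 3 libraries each except both 24 h groups, which had 2, and the labels do not say that replicates were separate cultures, so the p-values measure the spread between these libraries.

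Most of these genes encode proteins with a row of C2H2 fingers, small zinc-holding folds that read DNA bases, and a KRAB domain at the other end. KRAB binds the co-repressor TRIM28 (KAP1), which brings in the histone methyltransferase SETDB1, HP1 proteins and deacetylases, and the bound DNA, often a retrotransposon, is silenced. The genes arose by repeated local duplication, so neighbours resemble each other. Translated GENCODE coding sequences gave a KRAB score above 0 for 209 members and not for 35, and the other 17 were pseudogenes or had no protein there. Tested members had a median of 12.5 fingers.

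Library totals ran from 10342358 to 20878364 counts. The keratin KRT5 of basal breast epithelium was at 2332 to 4173 CPM (counts scaled to library size, per 1e6). Like KRT5, the basal genes KRT17, TP63 and ITGB4 averaged less at DMSO 24 h than at 0 h. KRT14 and LAMB3 averaged more, at 568 and 2666 CPM against 40.1 and 526 CPM. Among luminal genes, KRT8 was at 124 to 468 CPM and FOXA1 at 2.08 to 38.8 CPM. ESR1 reached at most 2.13 CPM and PGR at most 0.0683 CPM. Of the fibroblast genes, COL1A1 was at 10.7 to 29.3 CPM, while PDGFRB reached at most 0.667 CPM and COL3A1 at most 0.0845 CPM. The endothelial gene KDR averaged 1.86 CPM at DMSO 24 h and 89.0 CPM at 0 h, while CDH5 and VWF reached at most 0.254 CPM, and the blood gene PTPRC at most 0.239 CPM. The part of COL1A1 and KDR in the changes between DMSO 24 h and 0 h was not tested. The proliferation gene MKI67 averaged 7.43 CPM in palbociclib cells and 827 CPM in DMSO cells at 24 h. Along the largest axis of deviation from the group means, which held 27.5% of the within-group variance, 5 libraries, replicate 3 of the 4 palbociclib groups and of DMSO 24 h, scored between −27.2 and −7.84. Replicate 3 of the other groups scored 7.51 to 18.5, and replicate 2 of the 0 h and DMSO groups also lay below 0. Of these, replicate 2 of DMSO 6 h, at −24.8, lay within the range of the 5. The score furthest from 0 was 31.6, in replicate 1 of palbociclib 15 h, which is not among the 5. With 2 libraries in a 24 h group, their scores mirror each other by construction and cannot show which library deviates. The median deviation of the tested members from their group means ran from −0.0754 (log2) in replicate 3 of palbociclib 24 h to 0.0923 in replicate 1 of palbociclib 15 h. The labels give no reason, and counts without the 5 libraries are given where they differ by over 1.5 times, and for the clusters described.

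Promoter sequences show how closely members of 1 block resemble each other. Of the 261 members, 210 had a RefSeq promoter window in GRCh38.p14, from 250 bases before to 50 bases after the annotated start. The first 3 windows below belong to ZNF85, ZNF714 and ZNF93, 3 of the genes lower with palbociclib in the block at 19668796 to 24129961, cluster 6. The last belongs to a gene called higher at 3 h alone. In the first 3, capitals mark the CCAAT-box letters CCAATCAG and the run ATCTTCTGTCACTCAG, and in the last they mark the ETS-type letters CCGGAAGT, here read on the reverse strand. All 4 are on the plus strand of chromosome 19.
ZNF85, chr19:20923001-20923300: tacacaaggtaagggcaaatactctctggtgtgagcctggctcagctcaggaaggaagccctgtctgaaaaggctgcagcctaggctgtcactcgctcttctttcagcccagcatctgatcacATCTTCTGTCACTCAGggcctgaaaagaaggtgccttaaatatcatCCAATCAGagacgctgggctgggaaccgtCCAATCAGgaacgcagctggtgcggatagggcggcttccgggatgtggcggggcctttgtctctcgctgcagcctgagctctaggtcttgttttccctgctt
ZNF714, chr19:21081953-21082252: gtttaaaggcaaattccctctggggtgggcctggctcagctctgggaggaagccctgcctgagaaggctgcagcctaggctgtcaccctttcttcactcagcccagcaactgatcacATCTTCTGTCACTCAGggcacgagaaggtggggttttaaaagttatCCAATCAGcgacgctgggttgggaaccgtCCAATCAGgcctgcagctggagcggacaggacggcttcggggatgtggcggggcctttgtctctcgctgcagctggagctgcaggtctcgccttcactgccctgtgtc
ZNF93, chr19:19900696-19900995: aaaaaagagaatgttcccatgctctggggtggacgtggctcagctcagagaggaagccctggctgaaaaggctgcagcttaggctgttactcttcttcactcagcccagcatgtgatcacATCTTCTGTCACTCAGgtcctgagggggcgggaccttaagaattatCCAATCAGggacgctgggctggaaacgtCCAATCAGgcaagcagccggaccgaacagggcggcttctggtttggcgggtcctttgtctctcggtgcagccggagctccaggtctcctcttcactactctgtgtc
ZNF274, chr19:58182811-58183110: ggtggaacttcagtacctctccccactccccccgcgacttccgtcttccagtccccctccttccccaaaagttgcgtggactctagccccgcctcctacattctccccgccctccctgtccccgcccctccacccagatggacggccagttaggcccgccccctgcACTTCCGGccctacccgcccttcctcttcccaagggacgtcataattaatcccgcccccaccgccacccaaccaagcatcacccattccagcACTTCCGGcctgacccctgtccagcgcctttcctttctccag

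CCAATCAG, searched on both strands, was in all 27 cluster 6 windows given by RefSeq, in 28 of 183 windows of members elsewhere on the chromosome (15.3%) and in 1388 of all 34943 human windows (3.97%). Most of those 28 belonged to neighbouring genes of other blocks. They were ZNF555, ZNF556, ZNF57 and ZNF77, and nearly all members with a window from ZNF627 to ZNF791, so the string is not particular to cluster 6. The 16-letter run was in 14 of the 27 cluster 6 windows, in 0 of the 183 others and in no window of any other gene, since all 14 human windows that held it were these. Both strings were picked after the sequences had been seen, and the run was taken from the ZNF85 window itself. Of the 9 tested members whose windows held the run, 3 were lower with palbociclib at some time. ZNF100, a cluster 6 gene also lower with palbociclib, had 1 CCAATCAG and 0 copies of the run. Whether either string goes with the drug difference was not tested. CCGGAAGT was in 45 of the 210 member windows (21.4%), against 4.11% of all windows and 4.5% of the windows of other chromosome 19 genes. It was in 0 of the 27 cluster 6 windows. At DMSO 3 h, 10 of the 42 tested members with CCGGAAGT were higher than at 0 h and 16 lower. Of the 132 with a window without it, 31 were higher and 60 lower, where all tested genes had 27.8% and 34.4%. The letters TATAAA were in 4 member windows (1.90%) and in 11.6% of all windows, and the E2F-type letters TTTGGCGC or TTTCGCGC in 12 (5.71%) against 1.14% of all. Cluster 6 held these E2F-type letters in 4 of its 27 windows (14.8%), and members elsewhere in 8 of 183 (4.37%). A further E2F-type string, TTCCCGCC, was in 9 member windows (4.29%) against 3.15% of all. Neither exact E2F string was in the windows of the 9 members with a window that were lower with palbociclib at some time. Near matches were not counted, and the ZNF93 window holds TTTGGCGG, which differs from TTTGGCGC in its last letter. Median GC content was 59.7% in member windows and 58.7% in all windows. These are letter matches and not measured binding.

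The members as a group lost transcript share while cells left starvation. They took 0.181 and 0.169% of all counts in DMSO 24 h libraries, against 0.271, 0.266 and 0.286% at 0 h. In these bulk libraries, less RNA per cell and fewer expressing cells cannot be told apart. At DMSO 24 h, 20 of the 203 were called higher (adjusted p below 0.05) and 128 lower than at 0 h, where 36.7% of all tested genes were called higher and 38.9% lower. The median log2 fold change was −0.65 over the members and −0.09 over all tested genes. By at least 2-fold, 5 members were higher and 63 lower, beside 16.4% and 22.0% of all genes.

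**Figure D1:**
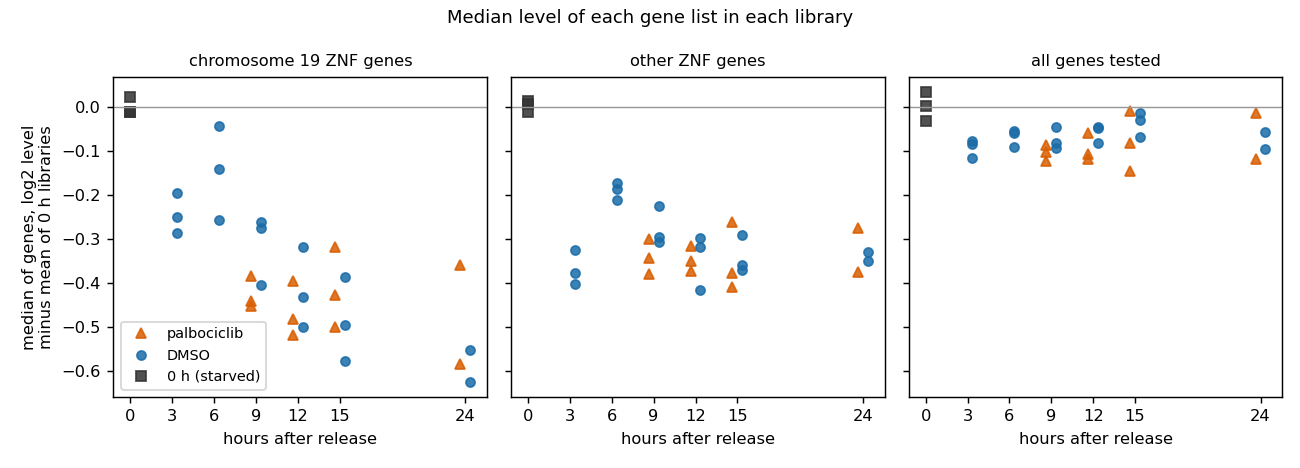
Median over genes of the log2 level minus the mean of the 0 h libraries (vertical axis), for each library by hours after release (horizontal axis), in chromosome 19 ZNF genes, other ZNF genes and all tested genes; triangles are palbociclib, circles DMSO and squares 0 h libraries. The DMSO 24 h libraries of the chromosome 19 members sit at −0.62 and −0.55, below all 0 h libraries.

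At DMSO 3 h, 47 members were higher and 87 lower (all tested genes 27.8% and 34.4%), with a median of −0.28. The 6 h libraries gave 46 higher and 75 lower (34.0% and 39.5% of all genes), with a median of −0.17. The 9 h libraries had 25 members higher and 96 lower (35.3% and 39.9%). Those of 12 h had 24 members higher and 115 lower (36.1% and 39.6%), and those of 15 h had 24 higher and 120 lower (37.4% and 39.3%). Medians at these times were −0.36, −0.40 and −0.53. Set directly against DMSO 6 h, DMSO 24 h had 19 members higher and 106 lower (30.1% and 30.0% of all genes), with a median of −0.50. Over the 6 times, 47 members were lower at all of them and 7 higher at all of them, 24 were higher at 3 h and lower at 24 h, and 5 were lower at 3 h and higher at 24 h. All 6 comparisons share the 0 h libraries. These patterns were not counted over all tested genes, so they cannot be called particular to the members.

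**Figure D2:**
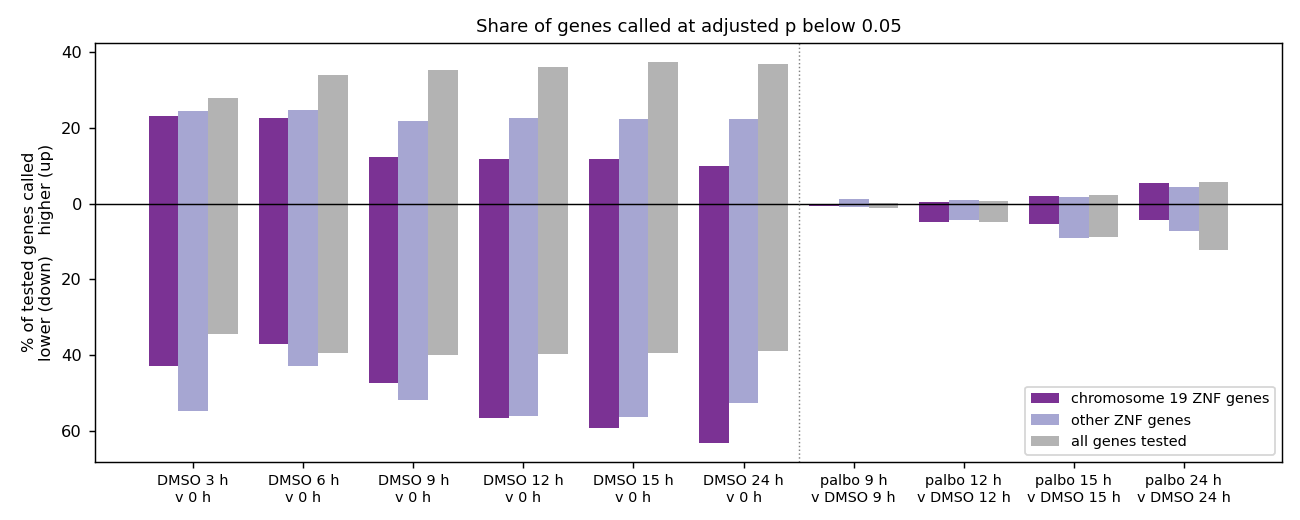
Percentage of tested genes called higher (upward bars) and lower (downward bars) in each comparison, for chromosome 19 ZNF genes, other ZNF genes and all tested genes. Upward bars of the chromosome 19 members are lower from 9 h on, and their downward bars reach 63.1% at 24 h, while drug bars are short in all 3 lists.

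Set beside them are the 234 tested ZNF genes of other chromosomes. At DMSO 3 h, 57 of them were higher and 128 lower (24.4% and 54.7%, beside 23.2% and 42.9% of the members), with a median of −0.39. At DMSO 24 h, 52 were higher and 123 lower (22.2% and 52.6%, beside 9.85% and 63.1% of the members), with a median of −0.35. All tested genes had 27.8% and 34.4% at 3 h, and 36.7% and 38.9% at 24 h. The 865 tested chromosome 19 genes other than the members had 266 higher and 372 lower at 24 h (30.8% and 43.0%), with a median of −0.24. The 76 tested genes named ZBTB, ZSCAN, ZKSCAN or ZFP with a number, mostly of other C2H2 finger families, had 9 higher and 47 lower at 24 h. These are 11.8% and 61.8%, near the shares of the members, with a median of −0.52. This list goes by name alone, and its proteins were not checked for C2H2 fingers. Any of the 76 that lie on chromosome 19 alone are also among the 865. The difference between lists was not tested.

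Members were also counted by their domains. At DMSO 24 h, 14 of the 169 tested members with KRAB were higher and 110 lower (median −0.68), beside 4 higher and 16 lower of the 29 without it (median −0.45). Shares called lower were 65.1% with KRAB, 55.2% without it, where all tested genes had 38.9%. Earlier DMSO times gave the reverse order. With KRAB first, lower shares were 43.2% against 44.8% (3 h), 34.3% against 55.2% (6 h), 46.2% against 58.6% (9 h). Later they were 56.2% against 65.5% (12 h), 58.0% against 65.5% (15 h). Medians kept the 24 h order only at 3 h (−0.27 against −0.21) and 15 h (−0.58 against −0.40). Whether the sets differ was not tested. For 24 h, KRAB-bearing ZNF genes on other chromosomes had 23 higher and 59 lower of 106 (median −0.46). Members with a higher mean level than the member median had 14 higher and 71 lower of 102, and those below it 6 higher and 57 lower of 101. Across the 203 members, the 24 h log2 fold change had a Spearman rho of 0.16 with mean log2 CPM and −0.05 with exon length, and across the 198 with a protein 0.03 with finger number, as descriptions over genes that share libraries.

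Of the 6 DMSO times, 3 h was the only one at which ZNF274 was called higher than at 0 h. It is a KRAB gene whose protein in human cells binds the 3′ ends of zinc finger genes and recruits SETDB1 there. Its level was 61.7, 58.3 and 58.8 CPM in DMSO 3 h libraries, against 18.6, 18.0 and 19.8 CPM at 0 h, a log2 fold change of 1.66 ± 0.07 (SE; adjusted p 1.16e-18). No 3 h library came near the 0 h range. By 6 h it was at 18.7, 18.5 and 22.2 CPM and at 24 h at 13.8 and 14.1 CPM, where it was called lower than at 0 h by −0.43 ± 0.09 (adjusted p 1.22e-04). No base of its exons lay in another gene.

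ZNF587B was at 28.2, 23.7 and 26.5 CPM in DMSO 3 h libraries and at 7.46, 6.86 and 6.92 CPM at 0 h (log2 fold change 1.88 ± 0.15, adjusted p 3.27e-12). Unlike ZNF274 it remained high, with 16.1 and 11.8 CPM at DMSO 24 h. ZNF587B shares 14.6% of its exonic bases with other genes, among them ZNF586 on the same strand. ZNF649, a KRAB repressor reported to lower serum response element and AP-1 reporters, was at 11.8, 8.76 and 11.2 CPM at DMSO 3 h, against 3.47, 2.77 and 3.40 CPM at 0 h (1.71 ± 0.16, adjusted p 9.4e-11). ZNF329 and ZNF132 followed among members whose mean log2 CPM was 0 or more, at 3 h log2 fold changes of 1.27 ± 0.16 and 1.22 ± 0.47. ZNF132 went on to 2.18, 1.80 and 2.27 CPM at DMSO 12 h, against 0.262, 0.404 and 0.298 CPM at 0 h (2.65 ± 0.39, adjusted p 3.06e-07). ZNF544 peaked later, at 47.8, 48.8 and 46.4 CPM in DMSO 6 h libraries, against 15.6, 17.5 and 16.5 CPM at 0 h, and was still at 38.6 and 35.1 CPM at 24 h. It shares 13% of its exonic bases with other genes.

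Early falls reached larger sizes. ZNF331, a KRAB gene that is imprinted in human tissues, was at 1.67, 2.1 and 2.79 CPM in DMSO 3 h libraries, against 13.9, 13.4 and 13.5 CPM at 0 h (−2.64 ± 0.14, adjusted p 1.64e-16). At DMSO 24 h it was at 5.07 and 5.60 CPM, still below every 0 h library. ZNF792 was at 0.750, 0.806 and 0.676 CPM at DMSO 3 h and at 5.23, 4.09 and 5.31 CPM at 0 h (−2.68 ± 0.22, adjusted p 4.68e-12). ZNF837, ZNF429 and ZNF85 followed with −2.34 ± 0.35, −2.28 ± 0.34 and −2.11 ± 0.22. Of these 5, ZNF331, ZNF792 and ZNF429 were called lower at all 6 DMSO times.

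**Figure D3:**
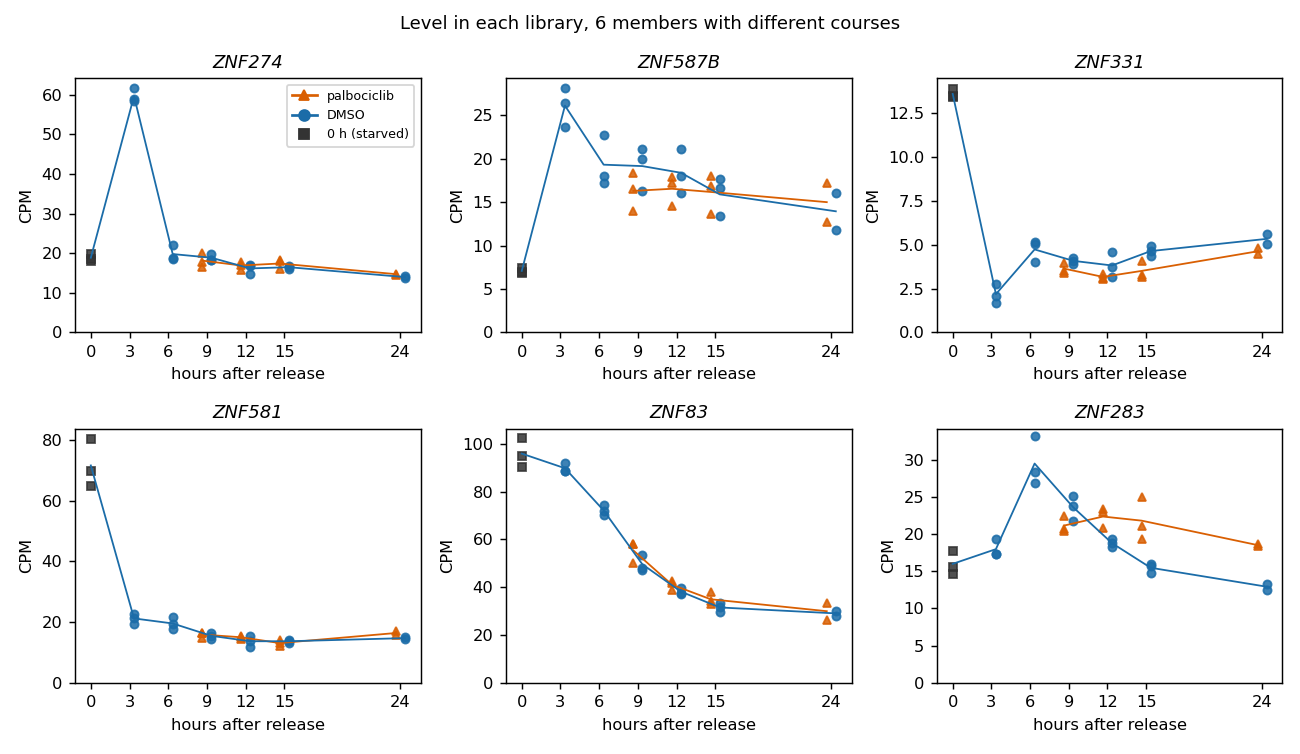
Level in CPM (vertical axis) of ZNF274, ZNF587B, ZNF331, ZNF581, ZNF83 and ZNF283 in each library by hours after release (horizontal axis); triangles are palbociclib, circles DMSO, squares 0 h, and lines join group means. ZNF274 stands at 58.3 to 61.7 CPM at DMSO 3 h alone, and ZNF83 steps down to 30.0 and 28.1 CPM at DMSO 24 h.

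Late falls led the 24 h comparison. ZNF83, a finger protein without KRAB in its GENCODE protein, was at 30.0 and 28.1 CPM in DMSO 24 h libraries, against 90.3, 103 and 95 CPM at 0 h (−1.73 ± 0.09, adjusted p 8.3e-18). At 3 h it still stood at 91.9, 88.8 and 88.8 CPM and was not called (adjusted p 0.23). ZNF554 was at 2.01 and 1.64 CPM at DMSO 24 h and at 10.9, 11.5 and 11 CPM at 0 h (−2.62 ± 0.21, adjusted p 8.0e-13). ZNF345 and ZNF836 had log2 fold changes of −2.64 ± 0.44 and −2.41 ± 0.18. ZNF358 had the lowest value of those named, −2.84 ± 0.15, with 2.78 and 3.44 CPM at DMSO 24 h against 24.0, 22.8 and 20.6 CPM at 0 h, but 34.4% of its exonic bases lie in other genes, as do 13.1% of those of ZNF836.

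Against DMSO 6 h, ZNF841 was at 8.60 and 8.35 CPM at DMSO 24 h, with 29.2, 26.1 and 34.7 CPM at 6 h (−1.81 ± 0.15, adjusted p 1.1e-11). This gene had risen at 3 h, to 40.6, 43.7 and 49.4 CPM against 16.7, 20.4 and 23.4 CPM at 0 h. ZNF880 gave −1.78 ± 0.19 over the same interval, and ZNF154 −2.44 ± 0.72 at a low and uneven level. ZNF628 went the other way at 14.5 and 12.4 CPM in DMSO 24 h libraries, against 5.84, 5.25 and 6.25 CPM at 6 h (1.23 ± 0.14).

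Per kilobase of exon, ZNF146 had the highest level of all members, 34.3 CPM per kb on average over the libraries. ZNF146, also called OZF, consists almost wholly of fingers. It was at 140 and 142 CPM in DMSO 24 h libraries, against 112, 119 and 113 CPM at 0 h (0.29 ± 0.06, adjusted p 3.31e-05), and was higher at all 6 times. It shares 10.8% of its exonic bases with ZNF565 on the opposite strand. Next came ZNF581, ZNF121, ZNF787, ZNF524, ZNF317, ZNF865 and ZNF83, at 12.3, 10.2, 9.66, 7.82, 7.52, 7.07 and 6.61 CPM per kb. Only ZNF317 of these 8 had a KRAB score above 0.

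ZNF581, a short gene with 4 fingers, was at 14.4 and 15.1 CPM in DMSO 24 h libraries and at 69.7, 80.3 and 64.9 CPM at 0 h (−2.28 ± 0.10, adjusted p 8.1e-19), and 23.4% of its exonic bases are shared. ZNF524, also with 4 fingers and with 14.1% of its exonic bases shared, was at 6.87 and 7.24 CPM at DMSO 24 h and at 33.6, 34.4 and 31.5 CPM at 0 h. ZNF121 varied between replicates of a group. Its DMSO 3 h libraries held 137, 95.8 and 157 CPM, against 61.5, 61.9 and 72.6 CPM at 0 h (0.98 ± 0.20, adjusted p 7.83e-05).

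Of 23 members listed for a reported role, 21 were tested, and at DMSO 24 h 2 of them were higher and 17 lower, where 36.7% of all tested genes were higher and 38.9% lower. ZNF91, whose protein silences SVA retrotransposons in human cells, was at 14.6 and 13.7 CPM in DMSO 24 h libraries, against 23.4, 20.6 and 26.3 CPM at 0 h (−0.73, adjusted p 8.49e-05). ZNF568, whose mouse relative represses a placental form of Igf2, averaged 1.78 CPM at DMSO 24 h and 4.27 CPM at 0 h (adjusted p 1.89e-04). ZNF224, a KRAB repressor first tied to the aldolase A gene, averaged 5.43 CPM at DMSO 24 h and 13.3 CPM at 0 h (−1.27, adjusted p 3.95e-09), with 40.5% of its exonic bases in an antisense gene. ZNF175 averaged 7.60 CPM at DMSO 24 h and 14.6 CPM at 0 h (−0.94). The 2 higher genes were ZNF146 and ZNF649, and ZNF93 and ZNF587 were not called.

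Members were then grouped by position. Starting a new cluster at each gap of more than 1000000 bases gave 17 clusters, 7 of which held 13 or more tested members. Cluster 16 (51571298 to 53580269, ZNF175 to ZNF331, 36 of 42 members tested) had 17 members higher and 14 lower at DMSO 3 h, and 1 higher and 28 lower at DMSO 24 h, with medians of 0.14 and −0.77. These are 47.2% and 38.9% of its tested members at 3 h, and 2.78% and 77.8% at 24 h, where all tested genes had 27.8% and 34.4% at 3 h, and 36.7% and 38.9% at 24 h. Without the 5 libraries DMSO 24 h keeps only replicate 1, so no 24 h count of that setting is given. Cluster 17 (55476332 to 58481230, ZNF628 to ZNF446, 52 of 60 tested), had 15 members above and 18 below their 0 h level at 3 h, and 6 above and 34 below it at 24 h, with medians of −0.03 and −0.68. Its shares at 3 h, 28.8% and 34.6%, were near those of all tested genes. In cluster 13 (43525497 to 45076588, 23 of 25 tested), rises numbered 2 and falls 11 at 3 h (8.70% and 47.8%), and 1 and 19 at 24 h (4.35% and 82.6%). Cluster 10 (36182060 to 37817300, 25 of 26 tested) counted 3 rises and 13 falls at 3 h (12% and 52%), and 1 rise and 15 falls at 24 h (4% and 60%).

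**Figure D4:**
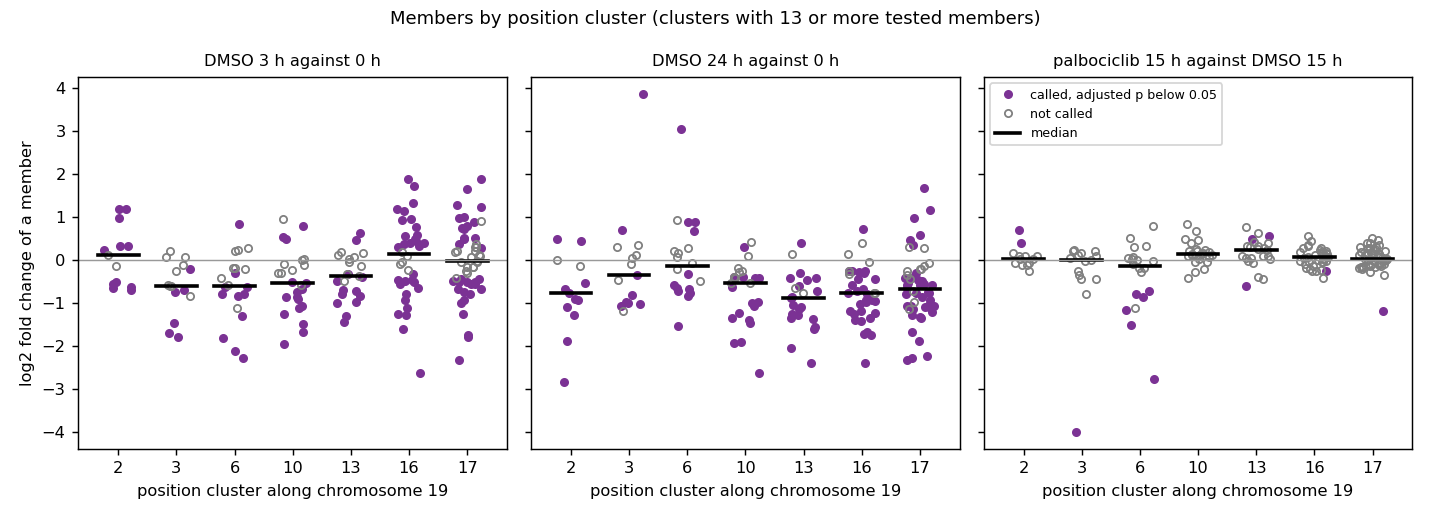
Log2 fold change of each tested member (vertical axis) by position cluster (horizontal axis) for DMSO 3 h against 0 h, DMSO 24 h against 0 h and palbociclib 15 h against DMSO 15 h; filled circles were called at adjusted p below 0.05, open circles were not, and bars are medians. The median of cluster 16 lies at 0.14 at 3 h and −0.77 at 24 h, and in the drug panel 6 of the filled circles below 0 belong to cluster 6.

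Cluster 6 had members going both ways. It holds 41 members between ZNF101 and ZNF254, of which 20 were tested, and 21 of the 58 untested members are here. At DMSO 3 h 1 of the 20 was higher and 10 lower, with a median of −0.61, where all tested genes had 27.8% and 34.4%. At DMSO 15 h 8 were higher and 5 lower (40% and 25%, beside 37.4% and 39.3% of all tested genes), with log2 fold changes from −1.72 to 3.12 and a median of 0.05. At DMSO 24 h 4 were higher and 8 lower (20% and 40%, beside 36.7% and 38.9%), with a median of −0.14. Outside the cluster, the 17 tested members with CCAATCAG in the promoter had 1 higher and 7 lower at 3 h and 1 higher and 10 lower at 15 h. Counts in the cluster at these times stayed between 9 and 13 lower at 3 h and between 7 and 9 higher at 15 h under the alternatives tried. Whether the course of the cluster differs from that of the rest was not tested.

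With palbociclib, 6 members of this cluster were lower than in DMSO, and the comparison uses the same DMSO libraries as that with 0 h. ZNF85 was at 1.87, 2.63 and 2.08 CPM in palbociclib 15 h libraries, against 4.15, 6.22 and 4.54 CPM in DMSO 15 h libraries (−1.17 ± 0.19, adjusted p 3.1e-05). In DMSO, its level had fallen to 1.09, 1.06 and 1.31 CPM at 6 h, against 5.10, 4.73 and 4.30 CPM at 0 h, and stood at 6.04 and 4.60 CPM at 24 h (2.2 ± 0.23 against DMSO 6 h). The palbociclib libraries of 9 h also lay below all DMSO libraries of 9 h, and ZNF85 was the 1 member called at that time (−0.95 ± 0.23, adjusted p 0.033). That call was lost without the 5 libraries, and also when replicate 1 or 3 of DMSO 9 h or replicate 2 or 3 of palbociclib 9 h was left out.

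ZNF714 was at 8.18, 5.8 and 6.18 CPM in palbociclib 15 h libraries and at 11.7, 10.8 and 11.8 CPM in DMSO 15 h libraries (−0.78 ± 0.11, adjusted p 3.3e-06). ZNF93, whose protein silences L1 retrotransposons in human cells, was at 0.682, 0.547 and 0.567 CPM in palbociclib and at 2.15, 1.54 and 1.41 CPM in DMSO libraries of 15 h (−1.51 ± 0.29, adjusted p 3.73e-04). Its level was again lower with the drug at 24 h, at 0.663 and 0.343 CPM against 1.11 and 1.69 CPM. ZNF100 was at 5.96, 7.61 and 5.99 CPM in palbociclib 15 h libraries, against 10.6, 11.2 and 10.9 CPM in DMSO 15 h libraries (−0.73 ± 0.13, adjusted p 6.0e-05). ZNF738, in whose GENCODE protein no finger was found, was at 2.64, 1.86 and 2.33 CPM with palbociclib and at 3.78, 4.13 and 4.39 CPM in DMSO at 15 h (−0.87 ± 0.21). ZNF100 was named here after its values were seen. For these 5 genes the groups do not overlap at 15 h, which the choice of named genes fixed in part and which is no further evidence.

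ZNF724P had the largest drug difference of the 6, with 0.682, 0.930 and 0.378 CPM in palbociclib 15 h libraries against 5.04, 3.52 and 5.43 CPM in DMSO 15 h libraries (−2.77 ± 0.35, adjusted p 2.9e-07). It had the largest named rise at DMSO 24 h as well, 3.04 ± 0.38 against 0 h, but 44.8% of its exonic bases lie in an overlapping gene on the same strand. ZNF724P was also among the 5 tested members that were pseudogenes or had no GENCODE protein. ZNF85, ZNF714, ZNF93, ZNF100 and ZNF738 share at most 6.01% of their exonic bases with other genes. They share at most 4.82% of their 75-base windows with other transcripts.

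**Figure D5:**
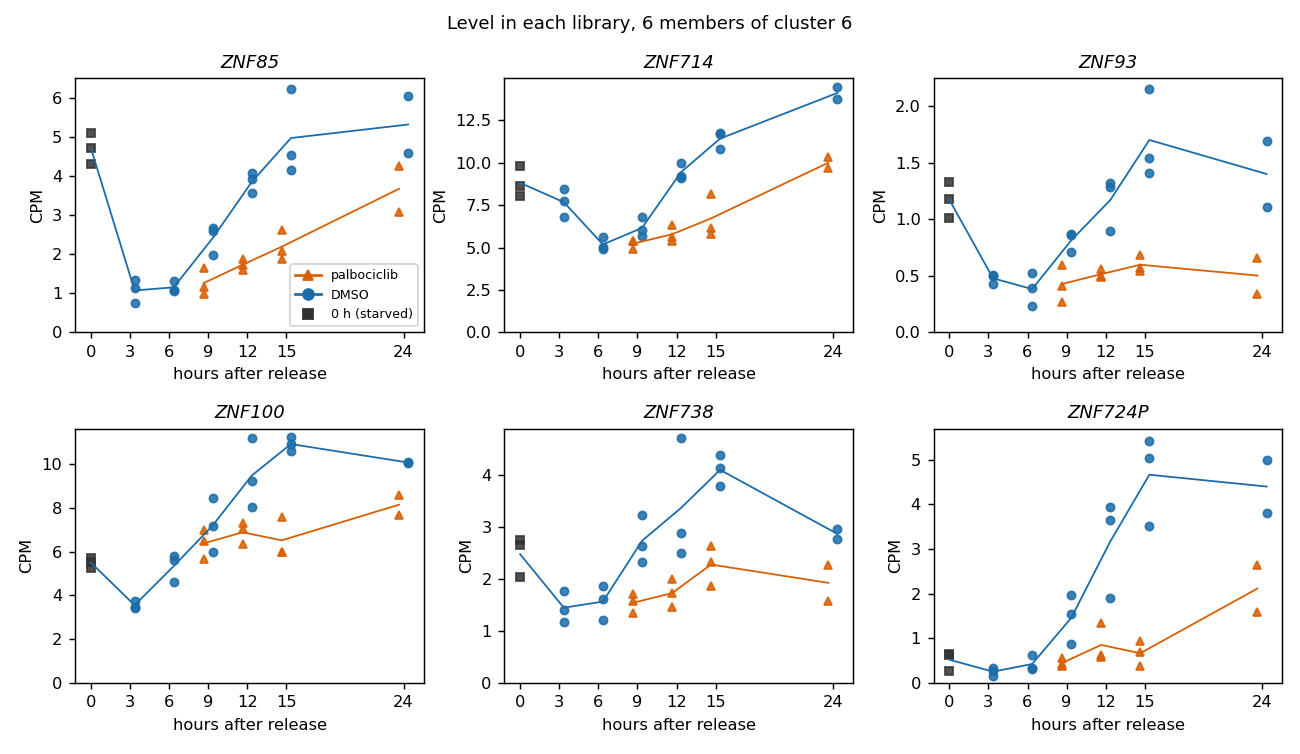
Level in CPM (vertical axis) of ZNF85, ZNF714, ZNF93, ZNF100, ZNF738 and ZNF724P in each library by hours after release (horizontal axis); triangles are palbociclib, circles DMSO, squares 0 h, and lines join group means. At 15 h the palbociclib libraries lie below the DMSO libraries in all 6 panels, as for ZNF85 at 1.87 to 2.63 CPM against 4.15 to 6.22 CPM.

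Counting by position, 6 of the 20 tested cluster 6 members were lower with palbociclib at 12 h and the same 6 at 15 h, beside 4 and 5 of the 183 tested members elsewhere. Over all 203 members the counts were 1 higher and 10 lower at 12 h (0.83% and 4.81% of all tested genes), and 4 higher with 11 lower at 15 h (2.15% and 8.79%). By 24 h, 11 were higher and 9 lower (5.76% and 12.3%), 3 of the lower ones in cluster 6. At 9 h 0 were higher and 1 lower (0.114% and 1.08%), while at unadjusted p below 0.05 in edgeR 4 were higher and 13 lower. Without the 5 libraries the 12 h count fell to 6 lower, while each 24 h group keeps only replicate 1 and no 24 h count is given. Leaving out any of the 24 h libraries also leaves its group without replication. A drop in the 24 h counts below therefore cannot be told apart from lost replication. Leaving out replicate 3 of DMSO 24 h gave 3 higher at 24 h, and leaving out replicate 1 of palbociclib 24 h gave 6 higher and 4 lower. Leaving out replicate 1 of DMSO 24 h or replicate 3 of palbociclib 24 h gave 5 lower. At 15 h, 1 was higher without replicate 2 of DMSO 15 h and 2 without replicate 3 of palbociclib 15 h, and 7 were lower without replicate 2 of palbociclib 15 h. The 12 h and 15 h counts in cluster 6 ranged from 4 to 6 and from 5 to 7 over all alternatives. The 24 h count of 3 there fell to 1 without replicate 3 of DMSO 24 h and to 0 without replicate 3 of palbociclib 24 h.

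Outside cluster 6, ZNF530 was lower with palbociclib at 12 h, at 1.56, 1.5 and 1.32 CPM against 3.66, 3.6 and 3.71 CPM in DMSO (−1.32 ± 0.19, adjusted p 7.6e-06). The difference remained past the threshold at 15 h and 24 h, at −1.20 ± 0.19 and −0.71 ± 0.24. ZNF887P had larger falls at 12, 15 and 24 h (−3.79 ± 1.12, −4.00 ± 1.10 and −3.02 ± 1.05), as did ZNF114 at 15 h (−1.83 ± 0.49). Their mean log2 CPM, −1.78 and −1.14, was below the limit of 0 set for naming genes. Both were named after their values were seen. ZNF473, also called ZFP100, a component of the U7 snRNP that processes the 3′ ends of histone mRNAs, was at 9.85 and 11.5 CPM in palbociclib 24 h libraries and at 15.5 and 16.4 CPM in DMSO 24 h libraries (−0.57 ± 0.14, adjusted p 0.0033). ZNF525 was at 12.1 and 13.2 CPM with palbociclib at 24 h, against 17.2 and 18.3 CPM in DMSO (−0.49 ± 0.10). ZNF180, named after its values were seen, was at 6.06, 6.18 and 6.69 CPM with palbociclib at 12 h and at 9.70, 10.3 and 8.79 CPM in DMSO (−0.61 ± 0.12, adjusted p 7.6e-04).

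The members higher with palbociclib at 24 h were led by ZNF554, ZNF550 and ZNF320. ZNF554 was at 4.64 and 3.09 CPM in palbociclib 24 h libraries, against 2.01 and 1.64 CPM in DMSO 24 h libraries (1.06 ± 0.26, adjusted p 0.0028), with 10.9 to 11.5 CPM at 0 h. ZNF550 was at 9.18 and 8.30 CPM with palbociclib and 5.90 and 5.13 CPM in DMSO at 24 h (0.67 ± 0.16). ZNF320 was at 7.38 and 8.17 CPM with palbociclib and 4.58 and 5.29 CPM in DMSO at 24 h (0.65 ± 0.16), and it shares 71.2% of its 75-base windows with other transcripts. ZNF558 was higher at 15 h and 24 h, by 0.39 ± 0.10 and 0.40 ± 0.12. ZNF224 was the 1 member higher at 12 h, at 6.23, 5.78 and 7.04 CPM with palbociclib and 4.5, 4.19 and 3.41 CPM in DMSO (0.64 ± 0.15), with the antisense overlap given above.

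ZNF283 was the 1 member whose drug effect at 15 h was called different from its effect at 9 h, by 0.64 ± 0.13 on the log2 scale (adjusted p 9.9e-04). At 15 h it was at 25, 21.1 and 19.3 CPM with palbociclib and at 16, 14.7 and 15.7 CPM in DMSO (0.49 ± 0.09), while at 9 h it was at 22.4, 20.6 and 20.4 CPM with palbociclib and at 23.8, 21.8 and 25.2 CPM in DMSO (−0.15 ± 0.09, adjusted p 0.59). In DMSO, the gene had peaked at 33.1, 28.4 and 26.9 CPM at 6 h. Over all tested genes, 0.133% were called higher and 3.91% lower in this comparison of effects. For 24 h against 15 h, edgeR called 0 members in either direction (1.06% and 1.92% of all genes), and 12 higher and 4 lower at unadjusted p below 0.05, and DESeq2 called 0 as well.

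A chosen list of KRAB co-repressor genes and related chromatin genes was counted as well. Of its 24 tested genes, 14 were higher and 6 lower at DMSO 24 h than at 0 h, with a median of 0.23. All tested genes had 36.7% higher and 38.9% lower there. In palbociclib against DMSO cells at 24 h, 0 of the list were higher and 8 lower, beside 5.76% and 12.3% of all tested genes. TRIM28, which KRAB binds directly, averaged 411 ± 11 CPM at DMSO 24 h and 331 ± 17 CPM at 0 h (SD, n = 2 and 3; log2 fold change 0.31, edgeR adjusted p 1.27e-04), and 300 ± 14 CPM in palbociclib cells at 24 h (−0.45 against DMSO). SETDB1 averaged 42.0 ± 1.2 CPM at DMSO 24 h and 59.2 ± 2.8 CPM at 0 h (−0.50). The HP1 genes CBX5 and CBX1 had log2 fold changes of 0.98 and 0.92 at DMSO 24 h against 0 h, and of −0.76 and −0.48 with palbociclib against DMSO at 24 h. The largest log2 fold changes of the list belonged to UHRF1 and DNMT1, which maintain DNA methylation at replication: 6.35 and 3.48 at DMSO 24 h against 0 h, and −2.33 and −1.24 with palbociclib against DMSO at 24 h.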

How the data were processed

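The deposited files hold raw read counts per gene for 31 libraries. Per the file headers, featureCounts 1.5.1 counted reads over GENCODE 25 exons by gene name, with no strand option and without reads that map to several places or genes, so members with near-identical copies or overlapping genes may be counted low or share reads. Per the submitters' processing notes, TopHat2 2.1.1 and Bowtie2 2.2.9 were named with builds GRCh38.p7 and hg38. From the counts, edgeR 4.0.16 (R 4.3.3) fitted quasi-likelihood models to all 31 libraries with TMM factors, after its low-count filter by group left 15787 genes, and p-values were adjusted by Benjamini-Hochberg over these. All adjusted p-values and SEs in the text are from this fit, and CPM uses TMM factors. Named genes were the 5 largest rises and falls per comparison among called members with mean log2 CPM of at least 0 and groups that do not overlap, the 8 highest per kb, members of reported role and co-repressors. The members, lists, clusters and promoter letters were chosen with earlier results of these data known. Depth was 10342358 to 20878364 counts per library. On data simulated for DMSO 24 h against 0 h, 14858 genes were tested and the fit recovered 51 of 67 genes changed 1.5-fold, 64 of 67 changed 2-fold and 66 of 66 changed 4-fold, with 13 false calls. Every simulated gene had the same spread (6.55% between libraries beyond counting noise), and no gene of low mean level was changed. These rates therefore need not hold for members that are low or vary more. Alternatives covered scaling, DESeq2 1.42.0, filters, a replicate block, exon length, shared exons, own-library fits and libraries left out, and those on cluster counts were added after seeing the data.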

Additional observations from a re-analysis of the deposited data

Results flagged for a closer look

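ZNF283 stood out because its palbociclib effect differed between times by a test of the difference itself: the effect at 15 h minus that at 9 h was 0.64 on the log2 scale (SE 0.13, edgeR adjusted p 9.9e-04).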

How the results depend on the processing

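Most DMSO counts against 0 h kept their size under the alternatives tried, except that leaving out members with shared exons gave 13 higher at 24 h (20 with them) and 0 higher with palbociclib at 12 h (1). Drug counts were small and moved more. Without a low-count filter 6 were lower at 9 h (1), 2 higher at 15 h (4), and the comparisons of effects gave 2 higher for 15 h against 9 h (1) and 1 for 24 h against 15 h (0). Without the 5 libraries 0 were lower at 9 h and 6 at 12 h, with 2 higher at 15 h and 2 for 15 h against 9 h. With each comparison's own libraries 0 were lower at 9 h and 5 at 24 h, with 2 higher at 15 h and 2 for 15 h against 9 h. Removing the exon length trend gave 7 higher at 15 h and 2 for 15 h against 9 h. DESeq2's test gave 2 higher and 7 lower at 15 h and 2 for 15 h against 9 h, as did DESeq2 size factors for the last. Same-numbered replicates did not deviate together in every pair, so the numbers were not taken to pair samples, and with the replicate block 2 members were lower for 15 h against 9 h (0). Leaving out each library in turn gave, in DMSO against 0 h, 44 to 48 at 3 h, 38 to 48 at 6 h, 20 to 29 at 9 h, 18 to 29 at 12 h, 19 to 29 at 15 h, 16 to 21 at 24 h called higher, and 80 to 84 at 3 h, 67 to 78 at 6 h, 71 to 93 at 9 h, 82 to 111 at 12 h, 94 to 115 at 15 h, 107 to 126 at 24 h called lower. Against DMSO 6 h, DMSO 24 h gave 13 to 18 higher and 80 to 111 lower. With palbociclib it gave 0 to 0 at 9 h, 1 to 2 at 12 h, 1 to 6 at 15 h, 3 to 12 at 24 h higher, and 0 to 2 at 9 h, 7 to 9 at 12 h, 7 to 12 at 15 h, 4 to 6 at 24 h lower. The effects at 15 h against 9 h gave 1 to 3 higher and 0 to 2 lower, and those at 24 h against 15 h 0 to 1 and 0 to 1. CHD4 at DMSO 3 h changed sign to −0.15 with library totals only, and ATRX at DMSO 24 h to 0.050 with the exon length trend removed, and the causes were not tested. The 58 untested members averaged at most 0.359 CPM, and what part depth or shared sequence has in this was not tested.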
